A study of Mus musculus with 16 samples.

Results

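Schlafen genes encode a family of proteins that share a conserved N-terminal domain. The genes examined here were Slfn1, Slfn2, Slfn3, Slfn4, Slfn5, Slfn8 and Slfn9, chosen by gene symbol among probe sets that the array's annotation assigns to a single gene. Of the 7 symbols, 6 had such a probe set, 1 each, among 22180 genes measured. All 6 passed the filter on dim genes, which left 16760 genes tested. Slfn9 shared its probe set with Slfn8, so no value is given for it. The family was selected on earlier results of these same arrays. Its differences between groups are therefore a description with standard errors and intervals, and they support no further statement.

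Gene expression was measured on 16 arrays of regulatory T cells (Treg cells), the CD4+ T cells that carry the transcription factor Foxp3 and restrain immune responses. The cells were sorted as CD4+Foxp3-YFP+ from spleen and peripheral lymph nodes of C57BL/6 mice and then stimulated for 4 h on plates coated with anti-CD3 and anti-CD28. In Atg7+/flFoxp3-Cre mice (labelled Atg7+/-) 1 copy of the autophagy gene Atg7 was floxed, and in Atg7fl/flFoxp3-Cre mice (Atg7-/-) both copies were. Each genotype gave 4 arrays from untreated mice and 4 from mice injected intraperitoneally with rapamycin, an mTOR inhibitor, daily for 5 days in doses of 4 mg per kg. All 4 groups carried Foxp3-Cre, which limits deletion to cells that express or have expressed Foxp3, and none was free of a floxed Atg7 allele. The labels give no age and do not say whether the arrays of a group came from separate mice, so the spread between them may be technical in part. In such bulk samples, fewer cells of a type and less RNA per cell cannot be told apart.

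In the mouse the family is usually sorted by protein length. Of the members examined here, Slfn1 and Slfn2 are short and Slfn3 and Slfn4 are intermediate. Slfn5, Slfn8 and Slfn9 are long proteins with a helicase-like C-terminal part. Slfn1 slows growth when it is forced on in developing T cells, and loss of Slfn2 function leaves T cells unable to stay quiescent. Several members are induced by type I interferon, and rapamycin acts on mTOR, a kinase that drives T cells out of quiescence.

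The genes lie side by side on chromosome 11, and the 250 bases before and 50 after each start site were read from RefSeq's promoter table (GRCm38.p6), in which all 7 symbols matched. They are shown so that the letters upstream of each member can be set beside its values. A core of the interferon-stimulated response element (ISRE, searched as GAAANNGAAA on both strands) stood in the windows of the long members Slfn5, Slfn8 and Slfn9. It stood in 3.44% of 32851 windows of the same length over all genes. An ETS box (CAGGAAGT, both strands) stood in the windows of the short and intermediate members Slfn1, Slfn2, Slfn3 and Slfn4, and in 3.33% of all windows. No member's window held both, and the window of Slfn14, a further gene of the cluster, held neither. The motifs were chosen after the sequences had been read, and a match is a description of letters, not a binding site. Neither a STAT GAS motif (TTCNNNGAA) nor a FOXO box (GTAAACA) matched in these windows, against 8.3% and 3.65% of all windows. Below are 40 bases around each match, 5′ to 3′ on the gene's own strand, with the motif in capitals.
Slfn5 (ISRE core): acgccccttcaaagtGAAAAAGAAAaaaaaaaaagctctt
Slfn8 (ISRE core): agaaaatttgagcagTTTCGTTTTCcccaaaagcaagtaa
Slfn9 (ISRE core): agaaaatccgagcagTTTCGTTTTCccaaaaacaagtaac
Slfn1 (ETS box): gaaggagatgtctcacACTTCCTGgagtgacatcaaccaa
Slfn2 (ETS box): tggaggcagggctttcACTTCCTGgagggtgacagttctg
Slfn3 (ETS box): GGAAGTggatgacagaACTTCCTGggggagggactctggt
Slfn4 (ETS box): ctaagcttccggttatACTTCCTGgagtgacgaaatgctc

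In Slfn3 the capitals at the left edge end an ETS box in the opposite orientation. The motif began 48 bases before the start site in Slfn8 and 45 before it in Slfn9, and 155 before it in Slfn5. RefSeq's table holds a second start site for Slfn8, from which the same match began 136 bases upstream. The ETS box began 74, 55 and 73 bases before the start in Slfn1, Slfn2 and Slfn4, and 60 and 42 bases before it in Slfn3. Slfn8 and Slfn9 were 80.7% identical over 305 alignment columns, against 42% to 48.6% for the other pairs. Slfn1 and Slfn4 shared the 15-base run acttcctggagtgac across the ETS box. The whole windows of Slfn2, Slfn5 and Slfn8 follow, as the members that the fit called lower with rapamycin in both genotypes.
Slfn2, chr11:83064862-83065161, plus strand: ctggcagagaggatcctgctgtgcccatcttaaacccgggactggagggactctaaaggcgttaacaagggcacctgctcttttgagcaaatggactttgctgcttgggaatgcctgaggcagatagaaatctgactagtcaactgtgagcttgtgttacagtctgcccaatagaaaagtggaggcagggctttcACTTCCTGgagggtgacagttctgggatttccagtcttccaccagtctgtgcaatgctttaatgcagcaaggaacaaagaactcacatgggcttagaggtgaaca
Slfn5, chr11:82951852-82952151, plus strand: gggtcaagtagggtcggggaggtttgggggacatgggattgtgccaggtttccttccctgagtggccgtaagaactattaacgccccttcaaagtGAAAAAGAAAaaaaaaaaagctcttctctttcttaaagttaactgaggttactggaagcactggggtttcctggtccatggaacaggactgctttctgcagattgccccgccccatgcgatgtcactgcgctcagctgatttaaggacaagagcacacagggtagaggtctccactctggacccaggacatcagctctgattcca
Slfn8, chr11:83020761-83021060, minus strand: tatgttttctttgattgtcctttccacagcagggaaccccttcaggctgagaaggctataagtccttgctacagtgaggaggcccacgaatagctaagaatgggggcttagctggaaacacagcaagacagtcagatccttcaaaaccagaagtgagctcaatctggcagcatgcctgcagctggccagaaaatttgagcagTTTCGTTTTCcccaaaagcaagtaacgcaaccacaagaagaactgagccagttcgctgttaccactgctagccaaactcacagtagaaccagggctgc

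Pearson correlations between arrays were 0.973 to 0.994 over the genes tested, no 2 arrays were identical, and array medians lay between 4.41 and 4.63 on the log2 scale. On the second principal component, replicate 3 of the rapamycin Atg7-/- group lay far from its 3 companions. Without it the rapamycin differences in Atg7-/- cells were -1.08 for Slfn5, -0.57 for Slfn8 and -0.24 for Slfn2, and only the call of Slfn2 was lost. Foxp3, the defining Treg gene, had group means of 10.86 to 11.34 on the log2 scale, and all 8 Treg markers measured were above the dimness threshold of 3.549. Some of the 8 differed between groups in limma. Foxp3 was lower in untreated Atg7-/- than Atg7+/- cells (-0.40, adjusted p = 0.0355), and Ikzf4 was lower in Atg7-/- cells under rapamycin (-0.45, adjusted p = 0.0341). With rapamycin Nrp1 was lower by -0.85 in Atg7+/- cells and by -0.80 in Atg7-/- cells, Tnfrsf18 was higher by 0.29 and 0.26, and Ctla4 was lower in Atg7-/- cells by -0.37. Their part in the Schlafen differences was not tested. The Atg7 probe set differed between genotypes by -0.28 without rapamycin and by -0.30 with it (limma adjusted p = 0.299 and 0.232). It may lie outside the deleted part and so checks nothing. A level of one gene is not set against that of another, since probe sets differ in brightness.

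In Atg7+/- cells 5 of the 6 Schlafen genes were called lower with rapamycin, and the long members Slfn5 and Slfn8 had the largest differences. Slfn5 was 2.19-fold lower and Slfn8 1.84-fold lower, and the short members Slfn1 and Slfn2 and the intermediate member Slfn3 were 1.38-fold, 1.39-fold and 1.43-fold lower. In each of these 5 genes all 4 rapamycin arrays lay below all 4 untreated arrays. Over all genes tested, limma called 14.1% in this comparison, 8.11% as lower, and in 13.1% all rapamycin arrays lay below all untreated ones. With each array centred on its median the split of calls was 667 higher and 1449 lower, against 1011 and 1359 as reported. Since the family was selected on these arrays, nothing is read from its count against those shares. The median difference over the 6 genes was -0.50 on the log2 scale, against -0.03 over all genes.

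**Figure D1:**
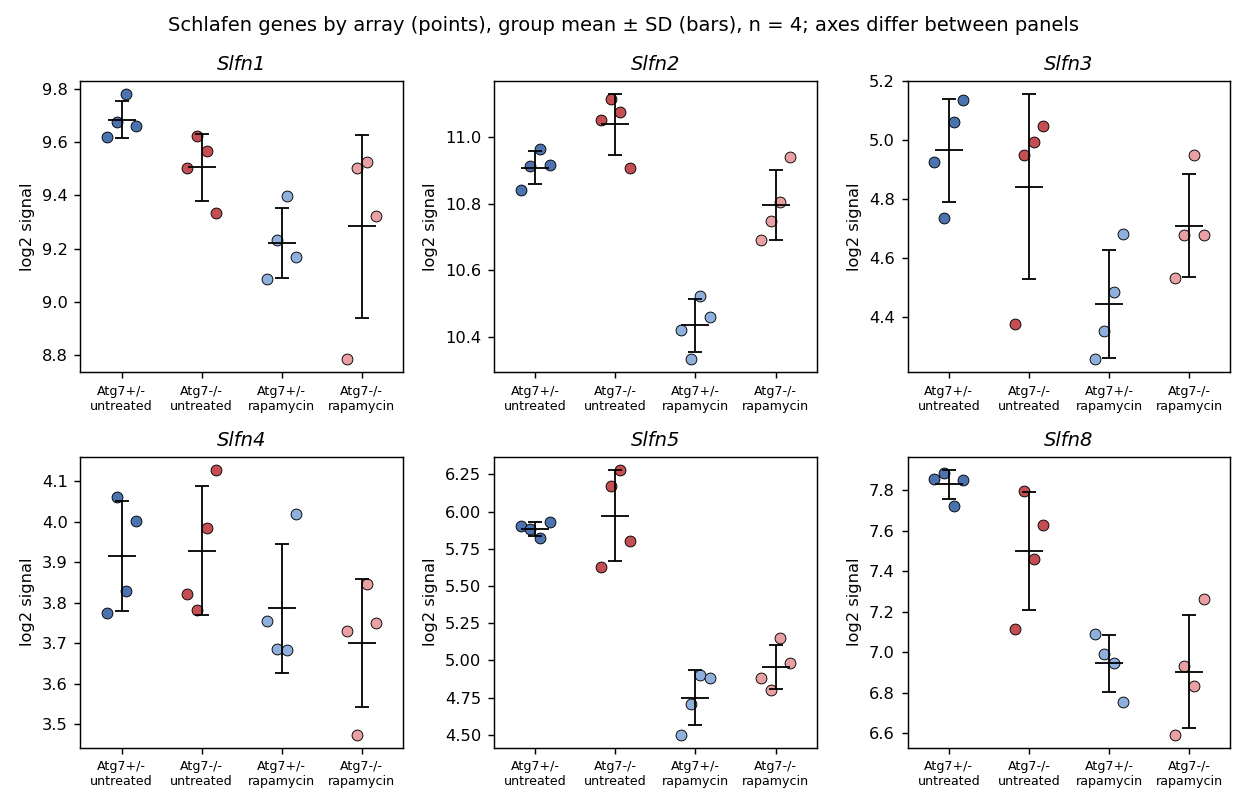
Log2 signal (y axis) of the 6 Schlafen genes in the 4 groups (x axis), 1 panel per gene, with 1 point per array and a bar at the group mean with its SD (the y axis differs between panels). In the Slfn5 panel the rapamycin arrays, 4.502 to 5.15, all lie below the untreated arrays, 5.63 to 6.28, in both genotypes.

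Slfn5 is a long member whose human counterpart has been studied as an interferon-induced regulator of transcription. Its log2 values in untreated Atg7+/- cells were 5.90, 5.89, 5.82 and 5.93 in replicates 1 to 4. With rapamycin they were 4.502, 4.71, 4.90 and 4.89. The groups were separated by a gap wider than the spread within either. The log2 difference was -1.13 (SE 0.131, 95% interval -1.41 to -0.86, n = 4 arrays a group), and 0.221% of genes tested had a value as low or lower. Since the family was selected on these arrays, nothing is read from that share. In untreated Atg7-/- cells Slfn5 had values of 5.63, 6.17, 6.28 and 5.80, and with rapamycin 4.88, 4.80, 5.15 and 4.98. Again no rapamycin array reached an untreated one, although the untreated arrays were spread more widely (SD 0.306) than those of Atg7+/- cells (SD 0.046). The difference was -1.02 (SE 0.131, interval -1.29 to -0.74). The difference between the genotypes' rapamycin effects was 0.12 with an interval from -0.27 to 0.51. A further probe set, assigned to several symbols with Slfn5 among them, was not used here. Whether Slfn5 shares probes with other genes was not tested.

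Slfn8 is the long member that lies next to Slfn9, and a further probe set, not used here, is assigned to both. Its values are uncertain to the extent that the genes share probes. In Atg7+/- cells the untreated values were 7.86, 7.89, 7.72 and 7.85 and the rapamycin values 7.09, 6.99, 6.95 and 6.75. All rapamycin arrays were lower by more than the spread of either group. The log2 difference was -0.88 (SE 0.141, interval -1.18 to -0.59). In Atg7-/- cells the untreated values were 7.12, 7.80, 7.46 and 7.63 and the rapamycin values 6.59, 6.93, 6.83 and 7.26. Replicate 4 with rapamycin lay above untreated replicate 1, so the groups overlapped. The difference was -0.60 (SE 0.141, interval -0.89 to -0.30, 1.51-fold lower).

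Slfn2, which T cells need to stay quiescent, had untreated values of 10.84, 10.91, 10.96 and 10.92 in Atg7+/- cells. The rapamycin values were 10.42, 10.34, 10.52 and 10.46, with no overlap. The log2 difference was -0.47 (SE 0.0798, interval -0.64 to -0.30), small in size but several times the SD of either group. In Atg7-/- cells the untreated values were 11.05, 11.11, 11.08 and 10.91 and the rapamycin values 10.69, 10.75, 10.80 and 10.94. Here rapamycin replicate 4 lay above untreated replicate 4. The difference was -0.24 (SE 0.0798, interval -0.41 to -0.07), called by the fit, but the call was lost under 13 of 26 other settings. These were quantile normalization, median centring, no filter on dim genes, only the groups compared, the replicate block, and leaving out untreated Atg7+/- replicate 2, untreated Atg7-/- replicate 1, 2 or 3, rapamycin Atg7+/- replicate 4, or rapamycin Atg7-/- replicate 1, 2 or 3. The difference was -0.29 to -0.21 over all arrays left out singly.

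Slfn1, the other short member, was 9.62, 9.68, 9.78 and 9.66 in untreated Atg7+/- cells and 9.09, 9.23, 9.40 and 9.17 with rapamycin. The groups did not overlap, and the difference was -0.46 (SE 0.132, interval -0.74 to -0.19). In Atg7-/- cells it was 9.502, 9.62, 9.57 and 9.33 untreated and 8.79, 9.502, 9.53 and 9.32 with rapamycin, where replicate 1 was far below the other arrays. That difference was -0.22 (interval -0.50 to 0.05) and was not called, and without that replicate it was -0.06. The call in Atg7+/- cells was lost when untreated replicate 2 or 3, or rapamycin replicate 1, 2 or 4, was left out, with differences from -0.52 to -0.42 over all arrays left out singly.

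Slfn3, an intermediate member, was 4.93, 4.74, 5.06 and 5.14 in untreated Atg7+/- cells and 4.26, 4.36, 4.49 and 4.68 with rapamycin. All rapamycin arrays were lower, and the difference was -0.52 (SE 0.143, interval -0.82 to -0.22). That call was lost without untreated replicate 3 or 4 or rapamycin replicate 1 or 2, with differences from -0.60 to -0.46 over all arrays left out singly. In Atg7-/- cells Slfn3 was 4.38, 4.95, 4.995 and 5.05 untreated and 4.53, 4.68, 4.95 and 4.68 with rapamycin, so the groups overlapped and the difference of -0.13 (interval -0.43 to 0.17) was not called. Slfn4, the other intermediate member and one studied mostly in myeloid cells, sat close to the dimness threshold, with group means of 3.70 to 3.93. Its differences with rapamycin were -0.13 (interval -0.36 to 0.10) in Atg7+/- cells and -0.23 (interval -0.46 to 0.002) in Atg7-/- cells, with overlapping arrays and no call. Whether the probes of Slfn3 and Slfn4 also bind the transcript of the other was not tested.

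**Figure D2:**
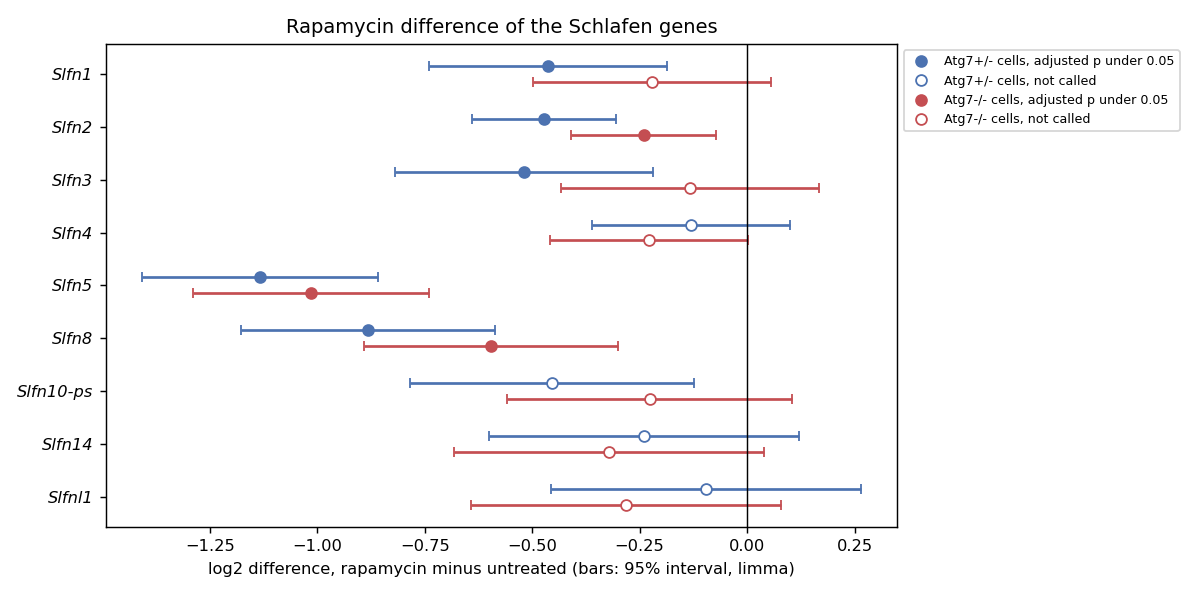
Log2 difference of rapamycin over untreated arrays (x axis) for the 6 Schlafen genes and Slfn10-ps, Slfn14 and Slfnl1 (y axis) in Atg7+/- and Atg7-/- cells, with 95% intervals from the fit, 4 arrays a group and filled points for genes called. The Slfn5 intervals, -1.41 to -0.86 and -1.29 to -0.74, lie lowest in both genotypes, and the Slfn4 intervals include 0.

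In Atg7-/- cells 3 of the 6 genes were called lower with rapamycin, namely Slfn5, Slfn8 and Slfn2, and all 6 had negative differences. The fit called 20.0% of all genes there, 11.1% as lower, and Slfn5 alone of the members had all rapamycin arrays below all untreated ones, as 11.6% of all genes did. The median difference over the members was -0.23, against -0.04 over all genes. A call in one genotype and not in the other does not show a difference between them. For Slfn1, Slfn2, Slfn3 and Slfn8 the difference between the rapamycin effects was 0.24, 0.23, 0.39 and 0.29, with intervals that all included 0. None of the 6 was called for it, and neither was any of the 16760 genes (0%), of which 1052 had an unadjusted p under 0.05 in limma.

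**Figure D3:**
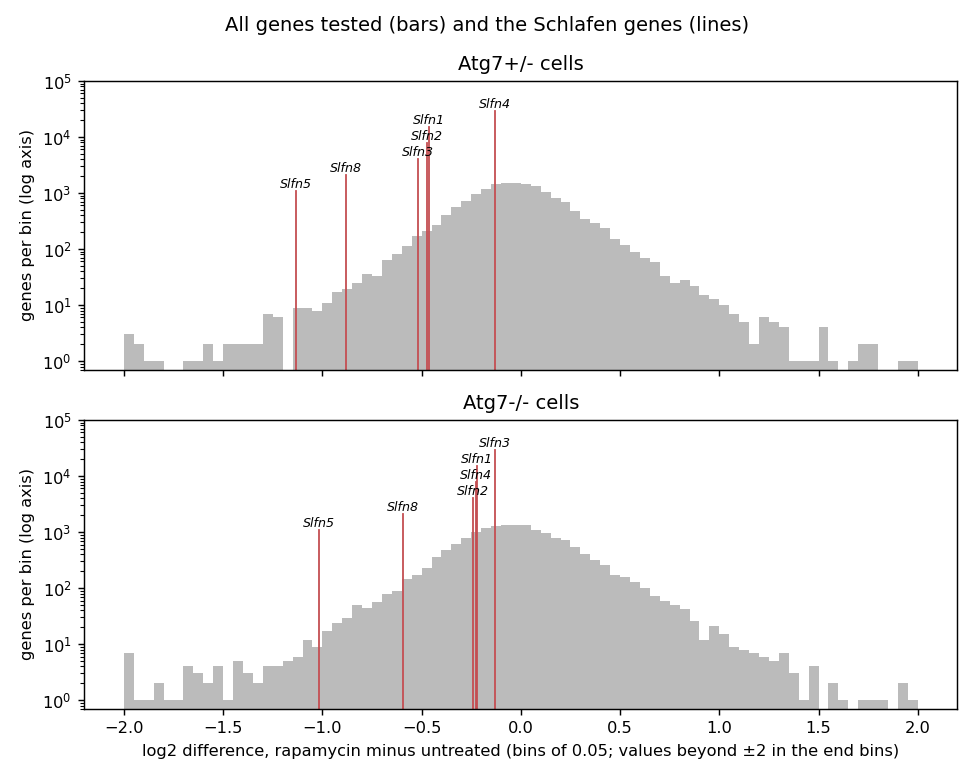
Distribution of the log2 difference with rapamycin (x axis) over the 16760 genes tested (y axis, genes per bin on a log axis, with values beyond the plotted range in the end bins), with the 6 Schlafen genes marked, in Atg7+/- and Atg7-/- cells. In Atg7+/- cells Slfn5 at -1.13 and Slfn8 at -0.88 lie in the far left tail, while Slfn4 at -0.13 lies near the middle.

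Between untreated genotypes none of the 6 Schlafen genes was called by limma, against 3.14% of all genes. Slfn8 was the 1 member with an unadjusted p under 0.05, at -0.33 in Atg7-/- cells (interval -0.62 to -0.03), and its arrays overlapped. The other 5 members differed by -0.18 to 0.13. Under rapamycin 1 of the 6 was called, Slfn2, against 3.24% of all genes. Its values of 10.69, 10.75, 10.80 and 10.94 in Atg7-/- cells all lay above those of 10.42, 10.34, 10.52 and 10.46 in Atg7+/- cells. The difference was 0.36 (SE 0.0798, interval 0.19 to 0.53, 1.28-fold higher). The call was lost when only the 2 groups compared were fitted and without Atg7+/- rapamycin replicate 1 or 2 or Atg7-/- rapamycin replicate 4, and the difference was 0.31 to 0.39 over all arrays left out singly. The genotype and rapamycin comparisons share arrays, so their values are not independent of each other.

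Ordered by group mean, Slfn5 and Slfn2 were highest in untreated Atg7-/- cells, then in untreated Atg7+/- cells, then in rapamycin Atg7-/- cells and lowest in rapamycin Atg7+/- cells. The untreated genotypes overlapped in both genes, untreated Atg7+/- and rapamycin Atg7-/- arrays overlapped in Slfn2 but not in Slfn5, and under rapamycin the genotypes overlapped in Slfn5 but not in Slfn2. Slfn1 and Slfn3 were highest in untreated Atg7+/- cells, then in untreated Atg7-/- cells, and lowest in rapamycin Atg7+/- cells. For Slfn8 the order was the same in the untreated groups, and the rapamycin groups, with means of 6.95 and 6.91, overlapped. The 4 groups of Slfn4 all overlapped.

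Markers of T cells moved with the same comparisons. Of 6 T cell markers listed, 4 were measured (Cd3e, Cd3d, Cd3g and Cd4), and limma called 3 of 4 lower with rapamycin in each genotype and 2 of 4 higher in Atg7-/- than in Atg7+/- cells under rapamycin. Their summed linear signal was 4567 to 4993 in untreated Atg7+/- cells, 5175 to 5741 in untreated Atg7-/- cells, 3089 to 3764 in rapamycin Atg7+/- cells and 4088 to 4981 in rapamycin Atg7-/- cells. CD8 T and NK cell markers, of which 8 were measured and 6 tested, summed to 330 to 362.4, 471.4 to 504.4, 241.9 to 293.6 and 399.5 to 447.6 in the same order. Klrd1 and Klrk1 of that list were below the threshold in every group, and Nkg7 and Cd8b1 were higher in Atg7-/- cells under rapamycin by 0.94 and 0.72. Nkg7 was also higher in untreated Atg7-/- cells, by 0.86 (limma adjusted p = 0.00855). Under rapamycin Cd8a, Ncr1 and Eomes had lower means in Atg7-/- cells, at 4.452, 3.685 and 4.074 against 4.627, 3.797 and 4.172. Klrb1c was at 3.597 against 3.513, and none of these genes was called. A linear sum weighs the brightest genes most, here Nkg7 and Cd8b1, so it does not describe the list as a whole. Monocyte and macrophage markers, bearing on Slfn4, summed to 254.2 to 634.9 in rapamycin Atg7-/- cells and to 384.3 to 526.9 in the other groups, with Itgam below the threshold in every group. Ccr2 of that list was lower with rapamycin by -0.99 in Atg7+/- cells and by -1.41 in Atg7-/- cells (limma adjusted p = 0.0169 and 0.00118). No other gene of the list was called. In Atg7+/- cells the means of Lyz2 (7.017 against 6.018), Cd14 (3.897 against 3.57) and Cd68 (7.135 against 7.126) were higher with rapamycin. The rest were lower. In Atg7-/- cells only the mean of Cd14 was higher (3.876 against 3.826). Of the B cell, neutrophil, dendritic cell, erythroid, plasma cell and stromal markers, at most 1 gene a list was called in each direction in any comparison. Among these, Xcr1 was lower with rapamycin by -1.10 in both genotypes, and Flt3 was higher by 0.55 in Atg7+/- cells. Stromal markers summed to 268.1 to 277.9 in untreated Atg7+/- cells and 350.4 to 411.3 in untreated Atg7-/- cells. Pecam1, the brightest of that list, was higher there by 0.60 (limma adjusted p = 0.0181) and was the only one called. Pdgfra was at 3.629 against 3.4 and Col1a1 at 4.903 against 4.895, while Col1a2 (3.97 against 4.017) and Cdh5 (3.788 against 4.004) were lower. Neutrophil markers summed to 114.1 to 193.3 in untreated Atg7+/- cells and 196.1 to 242.7 in untreated Atg7-/- cells. S100a8 and S100a9, the brightest of that list, had means of 4.944 and 5.623 against 5.993 and 6.359. Mpo and Elane were slightly higher in untreated Atg7-/- cells, Ly6g and Csf3r slightly lower, and no gene of the list was called there. The part of these markers in the Schlafen differences was not tested.

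Several neighbours of the cluster were looked at in the same arrays. Of 7 tested genes that flank it, Rad51d, Fndc8, Nle1 and Unc45b on one side and Ap2b1, Rasl10b and Gas2l2 on the other, only Nle1, a ribosome assembly factor, was called. It was lower with rapamycin by -0.71 in Atg7+/- cells and by -0.55 in Atg7-/- cells (limma adjusted p = 0.000121 and 0.000639). Over all genes 8.11% and 11.1% were called lower there, and 14.1% and 20.0% in either direction. At 1 of 7, the neighbours lay near those shares. The other 6 neighbours differed with rapamycin by -0.35 to 0.15 and none was called. Within the family's own stretch, Slfn10-ps, a pseudogene between Slfn8 and Slfn2, differed by -0.45 in Atg7+/- cells (adjusted p = 0.062) and by -0.23 in Atg7-/- cells. Slfn14, at the far end, differed by -0.24 and -0.32, and Slfnl1, a Schlafen-like gene elsewhere in the genome, by -0.09 and -0.28. None of these 3 was called in any comparison.

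**Figure D4:**
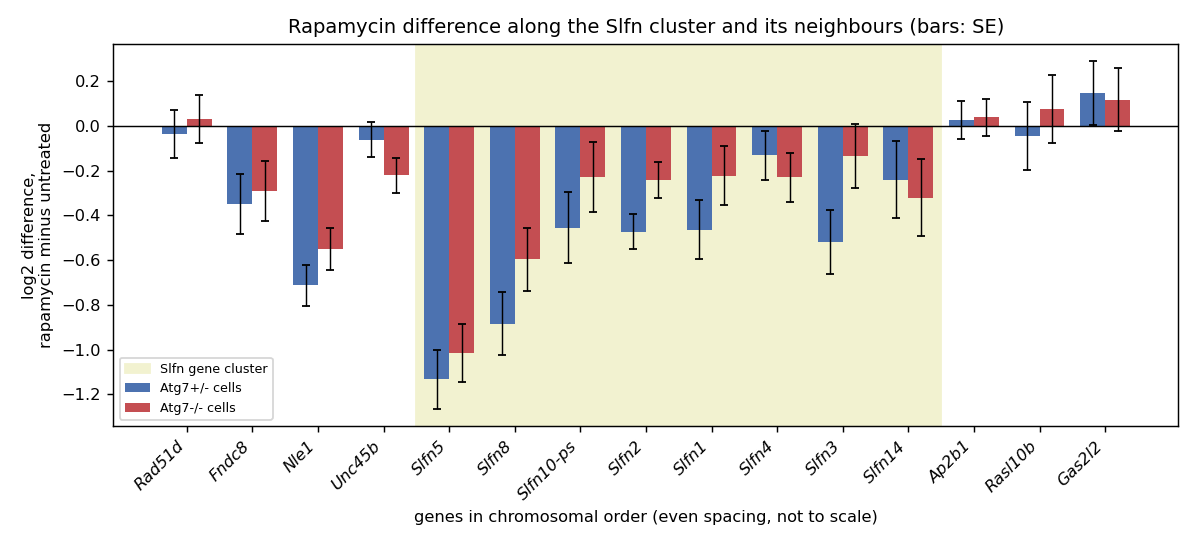
Log2 difference with rapamycin (y axis) for the genes along the Schlafen cluster in chromosomal order (x axis), with flanking genes, in Atg7+/- and Atg7-/- cells, as bars with the SE of the fit and genes evenly spaced. Slfn5 at one end is lowest at -1.13 and -1.02, and among the flanking genes Nle1 at -0.71 and -0.55 is the 1 that was called.

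The members varied together to different degrees. Across the 16 arrays, which share the 4 group differences, Slfn2 and Slfn5 had r = 0.83, Slfn5 and Slfn8 r = 0.82, and Slfn3 and Slfn5 r = 0.74. After the group means were removed these values were 0.43, 0.23 and 0.67. Across the 16 arrays Slfn4 followed the others least, with r = 0.19 to Slfn1, 0.31 to Slfn2, 0.45 to Slfn8, 0.49 to Slfn3 and 0.56 to Slfn5. Within groups its r ran from -0.285 to Slfn1 up to 0.41 to Slfn3, above that of several pairs of other members. These are descriptions, with no p.

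Among 14941 other genes, those with the highest r to each member were named as a description, as the top of a long ranking. Slfn2 was nearest to Lat, the adaptor that links the T cell receptor to downstream signalling (r = 0.98, and 0.85 within groups), then to Tnfsf14 (0.97) and Cst7 (0.95). Slfn5 was nearest to Acap1 (0.98), to Tnf, the inflammatory cytokine (0.97), and to Mfsd2a (0.97). Slfn1 was nearest to Phf6 (0.94), Ptpn5 (0.92) and Vopp1 (0.92), and Slfn8 to C2cd4d (0.94), Epb41l2 (0.91) and Farp1 (0.91). Slfn3 and Slfn4 had lower top values, led by Tnfaip8l1 (0.86) and Sgsm2 (0.81). Lat was lower with rapamycin by -0.69 in Atg7+/- cells and by -0.44 in Atg7-/- cells. Under rapamycin it was higher by 0.43 in Atg7-/- than in Atg7+/- cells. Lat was picked for its likeness to Slfn2 over these same arrays, so differences like those of Slfn2 follow from the choice. They show nothing further.

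Interferon-stimulated genes other than the members were listed as a related group, since several Schlafen genes respond to interferon. Of 42 tested, limma called 5 lower and none higher with rapamycin in Atg7+/- cells, and 8 lower and none higher in Atg7-/- cells. These were 11.9% and 19.05% of the list, against 8.11% and 11.1% of all genes called lower. The medians were -0.25 and -0.15, against -0.03 and -0.04 over all genes. Lgals3bp (-0.80), Ifit1 (-0.71) and Epsti1 (-0.71) were the called genes with the largest differences in Atg7+/- cells (adjusted p = 0.0156, 0.0209 and 0.014). Isg15, a ubiquitin-like protein that interferon induces (-0.91), Usp18, the protease that removes it (-0.87), and Epsti1 (-0.70) were those in Atg7-/- cells (adjusted p = 0.00859, 0.022 and 0.0107). Neither genotype comparison called a gene of the list, against 3.14% and 3.24% of all genes. At an unadjusted limma p under 0.05, 5 were higher and 2 lower in untreated cells, and 5 higher and 1 lower under rapamycin. Over all 16760 genes, 2910 and 3067 had such a p.

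Among 17 interferon receptors and signalling genes, 3 were called lower in untreated Atg7-/- than Atg7+/- cells, Ifngr1 (-0.85), Irf1 (-0.50) and Ifnar1 (-0.36), with limma adjusted p = 0.00369, 0.0189 and 0.0383. These were 17.65% of the list, and 233 of all 16760 genes were called lower there. With rapamycin 1 was called higher and 2 lower in Atg7+/- cells, and 3 higher and 3 lower in Atg7-/- cells. Over all genes 14.1% and 20.0% were called either way. Ptpn6, a phosphatase that dampens receptor signalling, was lower by -0.72 in Atg7+/- cells, and Irf2 was higher by 0.39 (adjusted p = 0.000156 and 0.00774). In Atg7-/- cells Ifngr1 rose by 0.71 and Irf1 by 0.60 (adjusted p = 0.00279 and 0.00138). The list's medians were -0.02 and 0.05, against -0.03 and -0.04 over all genes. Usp18 is in both interferon lists. Under rapamycin Ptpn6 was higher by 0.47 and Ifngr1 lower by -0.58 in Atg7-/- than in Atg7+/- cells (adjusted p = 0.0158 and 0.0413).

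Genes tied to T cell quiescence, the state that Slfn2 is known to protect, were listed as well. Of 26 tested, limma called 4 higher and 2 lower with rapamycin in Atg7+/- cells, and 9 higher and 2 lower in Atg7-/- cells. The medians were 0.12 and 0.28, against -0.03 and -0.04 over all genes. The shares called higher were 15.38% and 34.62%, against 6.03% and 8.83% of all genes. The share called lower was 7.69% in both genotypes, against 8.11% and 11.1%. Txnip, which restrains glucose uptake, rose by 0.96 and by 1.32 (limma adjusted p = 0.000895 and 3.119e-05). Il7r, the receptor for the survival cytokine interleukin-7, and Klf2, which keeps T cells resting, rose by 0.96 and 0.74 in Atg7-/- cells (adjusted p = 0.000588 and 0.000777). Runx1 fell by 0.68 in Atg7+/- cells (adjusted p = 0.00152). In untreated cells limma called 4 of the 26 lower in Atg7-/- than in Atg7+/- cells, among them Txnip (-0.89), Ccr7 (-0.82) and Btg1 (-0.56). Their adjusted p were 0.0043, 0.000786 and 0.00695. Under rapamycin limma called 2 lower, Klf4 (-1.26) and Ccr7 (-0.48), with adjusted p = 0.0109 and 0.0301. These were 15.38% and 7.69% of the list, against 233 and 223 of all 16760 genes called lower. No gene of the 3 lists was called for the difference between the rapamycin effects in limma. The lists were chosen with earlier results of these data known, so nothing is read from their counts against those over all genes.

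**Figure D5:**
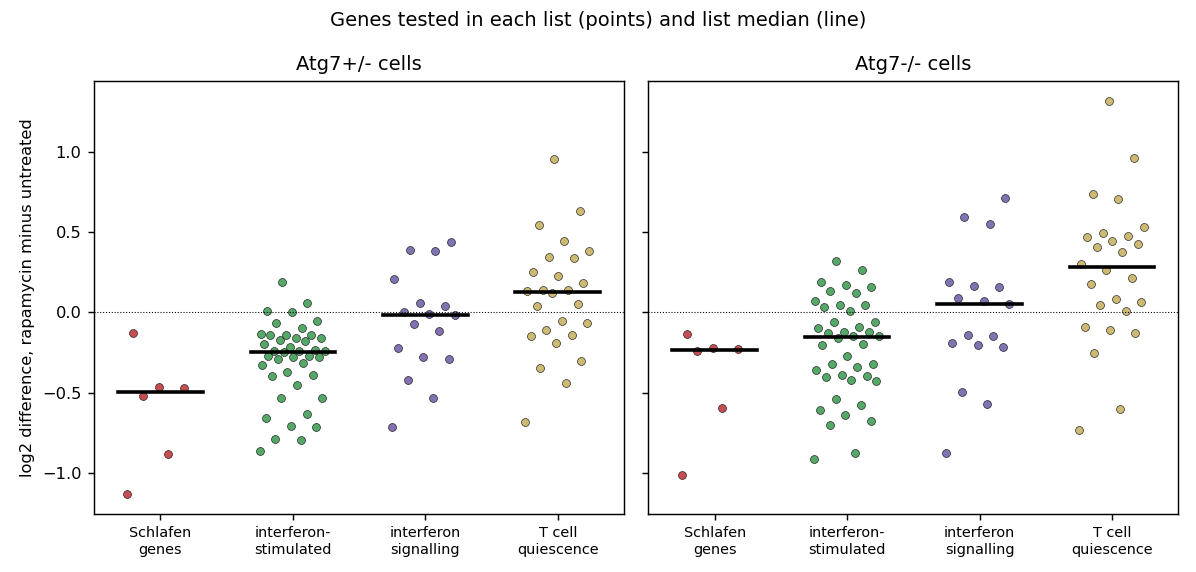
Log2 differences with rapamycin (y axis) for the Schlafen genes and the genes of the 3 related lists (x axis), in Atg7+/- and Atg7-/- cells, with 1 point per gene and a bar at each median. The Schlafen medians are -0.50 and -0.23, and the quiescence medians are 0.12 and 0.28.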

How the data were processed

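The authors deposited a table of log2 signals with 41345 probe sets and 16 arrays. The submitters' processing notes list RMA and Partek 6.6, giving neither order nor settings. The log base is not written in the deposited table and was taken as 2, which every fold rests on. The genome build is not given in the sources used here, and no batch is labelled. Of the probe sets, 23521 had 1 gene symbol in the platform annotation, 1814 had several and 16010 were not listed. The brightest probe set stood for a gene that had several. A gene entered the tests if its highest group mean exceeded 3.549, the 30th percentile of all values. All 16 arrays entered 1 linear model of group means in limma 3.58.1 (R 4.3.3, lmFit and eBayes, 12 residual and 5.64 prior degrees of freedom), with 5 contrasts. Tests were two-sided, p-values were Benjamini-Hochberg adjusted over 16760 genes, and a call is an adjusted p under 0.05. The fit was checked on simulated data. Promoter pairs were aligned with Biopython 1.88.

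The members and lists were chosen with earlier results of these data known. Named genes are the members, other family genes, Atg7, Foxp3, tested cluster neighbours, the 3 genes most like each member, and up to 3 called genes per list and contrast with the largest change (up to 2 with the smallest p where none was called). Predicted genes and antigen receptor segments were left out of the likeness. Alternatives were quantile normalization, median centring, 2 other filters, 2 other uses of probe sets, trend and robust moderation, array weights, only the groups compared, a replicate block, and each array left out. Replicate numbers were not taken as pairs. Arrays give no read depth, so their number limits the precision.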

Additional observations from a re-analysis of the deposited data

Results flagged for a closer look

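In untreated Atg7-/- cells Slfn3 had a log2 value of 4.377 in replicate 1, far below the other 3 arrays of that group, with a gap of 0.85 of the group's range. In untreated Atg7+/- cells Slfnl1 had a value of 4.504 in replicate 1, again the lowest, with a gap of 0.911 of the range. Both gaps passed Dixon's 95% critical value for 4 arrays, as 2 of 36 groups did, and chance gives about 1 in 20 groups.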

How the results depend on the processing

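Of 775 alternative values of the members, 749 kept their side of the threshold and 26 lost a call. The sign differed in 13 of them, all of differences called neither as reported nor under the alternative, and in 762 it was kept. These totals overstate stability, since many of the outcomes were fixed in advance. Each member had 1 probe set, so other uses of probe sets left its difference unchanged. Leaving out an array of a group outside a comparison of 2 groups also left the difference unchanged. Only differences called as reported could lose a call, and most were not called. Slfn5 and Slfn8 with rapamycin in both genotypes, and Slfn2 with rapamycin in Atg7+/- cells, kept their call under all 26 alternatives. The number of members called between genotypes under rapamycin was 0 to 1 without single arrays and 0 with only the groups compared. With rapamycin it was 3 to 5 without single arrays in Atg7+/- cells and 2 to 3 in Atg7-/- cells. The filter at the 50th percentile left Slfn4 out. The cause was not tested.

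The replicate block gave 0, 1, 5, 2 and 0 members called in the genotype (untreated, rapamycin), rapamycin (Atg7+/-, Atg7-/-) and interaction comparisons. Arrays of different groups were also correlated by their deviations from their group means. Of 24 same-number pairs 6 had such an r over 0.1, with a median of 0.023, against -0.009 for pairs with different numbers. For 8 of 16 arrays the highest such r was with an array of their own number, although most arrays of the other groups bore a different number.

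Counts over all genes moved by over 1.5 times between untreated genotypes (527 as reported, 318 with median centring, 974 with array weights, 284 to 333 without any untreated Atg7+/- array or untreated Atg7-/- replicate 1 or 4) and under rapamycin (543 as reported, 350 with median centring, 820 with the stricter filter, 886 with trend and robust options, 20 with only the groups compared, 95 to 287 without Atg7+/- rapamycin replicate 1, 2 or 4 or Atg7-/- rapamycin replicate 3 or 4). Rapamycin in Atg7+/- cells gave 1559 calls without its rapamycin replicate 2, against 2370, and the interaction 1 call without Atg7-/- rapamycin replicate 2. Under rapamycin the share of calls lower in Atg7-/- cells was 41.1% as reported, 30.8% with quantile normalization and 27.7% with median centring. It was 70% of 20 calls with only the groups compared, 52.9% and 56.8% without Atg7+/- rapamycin replicate 1 or 2, 59.9% without Atg7-/- rapamycin replicate 3, and 31.1% and 28.5% without Atg7+/- rapamycin replicate 3 or Atg7-/- rapamycin replicate 1. The interferon-stimulated calls with rapamycin in Atg7+/- cells, 5 as reported, were 5 to 11 over the other settings and 2 to 11 without single arrays, and those in Atg7-/- cells, 8 as reported, were 6 to 9 and 5 to 12. Quiescence calls, 6 and 11 as reported, were 5 to 10 and 9 to 13 over the other settings, and signalling calls, 3 and 6, were 2 to 6 and 5 to 7. In the genotype comparisons these lists had 0 to 7 calls over the other settings.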
